A study of Mus musculus with 2 samples.

Results

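Mitochondrial DNA (mtDNA) is a small circular chromosome that carries genes for subunits of the respiratory chain, for the 2 RNAs of the mitochondrial ribosome and for transfer RNAs. The genes studied here were all annotated genes with a name starting in mt-, with the reads of every transcript class summed. Of 37 such genes in the GENCODE M21 annotation, 20 had at least 1 read among the 14534 annotated genes read in the series. Reads were found for 18 of them in replicate 1 and 16 in replicate 2, with 14 shared, and 17 had none. All 13 mRNA genes and both rRNA genes were read, against 5 of 22 tRNA genes. The marker genes mt-Cytb, mt-Co1 and mt-Nd2 were the 3 with the most reads.

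The hearts came from male mice of the hybrid strain B6CASTF1/J aged 2 months, with no treatment, and formed 1 group of 2 long-read RNA libraries made from 2 µg of RNA each. Each long read is meant to span a whole transcript, so levels were not divided by length unless stated. Whether the reads did so was not tested. The labels gave the libraries separate biosamples and animal numbers, but the same donor entry and, in another field, the same animal number. P-values below compare these 2 libraries and cover counting error alone. They are not judged against any spread between replicates, and a difference between the libraries may be technical. The sources used here do not say which parental strain supplied the mtDNA.

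Respiratory complexes I, III and IV pump protons across the inner mitochondrial membrane, and ATP synthase uses the return flow to make ATP, for which the beating heart has a high demand. Each of these complexes is built from a few subunits encoded by mtDNA and many encoded in the nucleus. Both strands of mtDNA are transcribed into long precursors, and the tRNAs that punctuate them are cut out to release the mRNAs and rRNAs. Some of these mRNAs overlap or end within a stop codon that only the poly(A) tail completes. Copies of mtDNA inserted into nuclear chromosomes over evolution can be nearly identical to the mitochondrial genes.

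The sequences that bear on the read counts were taken from the GENCODE M21 transcripts (build mm10). The first set shows the ends of 3 mRNA genes that run into a neighbour, 80 bases each, with the shared bases in capitals. The last bases of mt-Atp8 (chrM:7890-7969, plus strand) are also the first 43 bases of mt-Atp6, those of mt-Nd4l (chrM:10094-10173, plus strand) hold the first 7 bases of mt-Nd4, and those of mt-Nd5 (chrM:13486-13565, plus strand) lie opposite 14 bases of mt-Nd6.
mt-Atp8: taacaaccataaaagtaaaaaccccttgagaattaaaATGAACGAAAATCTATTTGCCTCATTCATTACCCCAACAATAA
mt-Nd4l: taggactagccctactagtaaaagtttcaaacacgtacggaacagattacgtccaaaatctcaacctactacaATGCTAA
mt-Nd5: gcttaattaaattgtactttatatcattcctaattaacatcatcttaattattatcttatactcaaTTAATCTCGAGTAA

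The second set shows the annotated ends of the 3 mRNA genes that stop in an incomplete codon, 30 bases each, with the single base of that codon in capitals. They were mt-Co3 (chrM:9361-9390), mt-Nd4 (chrM:11515-11544) and mt-Cytb (chrM:15259-15288), all on the plus strand. Of the other mRNA genes, 8 ended in TAA and 2 in TAG. The first codon was ATG in 9 of the 13 and GTG, ATA, ATT or ATC in mt-Nd1, mt-Nd2, mt-Nd3 and mt-Nd5, in that order.
mt-Co3: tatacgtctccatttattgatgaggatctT
mt-Nd4: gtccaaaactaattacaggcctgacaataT
mt-Cytb: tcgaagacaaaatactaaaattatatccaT

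The third set sets mt genes beside their copies in a block of annotated pseudogenes on the minus strand of chromosome 1. The first 60 bases of mt-Atp6 (chrM:7927-7986) and of its copy Gm10925 (chr1:24614592-24614651) are the same, with the start codon in capitals.
mt-Atp6: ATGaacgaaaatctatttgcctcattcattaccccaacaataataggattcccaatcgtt
Gm10925: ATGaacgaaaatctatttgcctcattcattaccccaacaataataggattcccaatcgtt
In the next pairs capitals mark the bases that differ. mt-Nd3 (chrM:9459-9491) and Gm28438 (chr1:24613087-24613119) differ only at T3C, counted from the first base of mt-Nd3, over 345 compared bases. mt-Co1 (chrM:6381-6440) and Gm29216 (chr1:24616138-24616197) differ at T1056A, C1057T, A1059G, A1060G, C1062A and A1066T, counted from the first base of mt-Co1. All 6 differences fall in the first 13 bases of Gm29216, and its remaining 479 bases match the end of mt-Co1.
mt-Nd3: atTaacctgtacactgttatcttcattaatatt
Gm28438: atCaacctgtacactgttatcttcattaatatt
mt-Co1: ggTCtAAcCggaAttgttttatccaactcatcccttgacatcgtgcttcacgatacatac
Gm29216: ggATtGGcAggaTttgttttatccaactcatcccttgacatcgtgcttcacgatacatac

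The mt genes took a small share of the reads, and most of that share went to mt-Cytb and mt-Co1. They received 2739 of 447689 mouse reads in replicate 1, or 0.612% (95% Clopper-Pearson interval 0.589 to 0.635), and 4583 of 654198 in replicate 2, or 0.701% (0.680 to 0.721). Levels below are CPM, reads scaled to a common total of reads on annotated nuclear genes, which numbered 430251 and 629896, so the mt genes do not enter their own denominator. On this scale the mt genes summed to 6366 CPM in replicate 1 and 7276 CPM in replicate 2, a mean of 6821 ± 643 (SD, n = 2). In bulk tissue, fewer cells of a type, fewer mitochondria and less RNA per cell cannot be told apart. A count of 0 allows up to 3 reads, equal to 6.97 CPM in the first library and 4.76 CPM in the second. Intervals and this limit include counting error alone, since several reads may stem from 1 molecule. The tissue label was checked against 6 cardiomyocyte markers: all had reads, summing to 52118 and 44787 CPM, led by Myh6, Pln and Tnnc1.

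mt-Cytb, the mtDNA-encoded subunit of complex III (ENSMUSG00000064370.1, chrM:14145-15288), had the highest level, with 966 and 1518 reads, or 2245 and 2410 CPM. mt-Co1, the catalytic core of complex IV (ENSMUSG00000064351.1, chrM:5328-6872), followed with 875 and 1455 reads, or 2034 and 2310 CPM. mt-Cytb was higher than mt-Co1 in both libraries, but their ranges over the libraries overlapped. Within replicate 1 there were 1.10 mt-Cytb reads per mt-Co1 read (95% counting interval 1.01 to 1.21) and within replicate 2 there were 1.04 (0.970 to 1.12). Together these genes held 67.2% (65.4 to 69.0) and 64.9% (63.5 to 66.3) of mt reads. By mean CPM they ranked 37th and 47th of the 14534 annotated genes read, and no other mt gene ranked above 292nd.

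**Figure D1:**
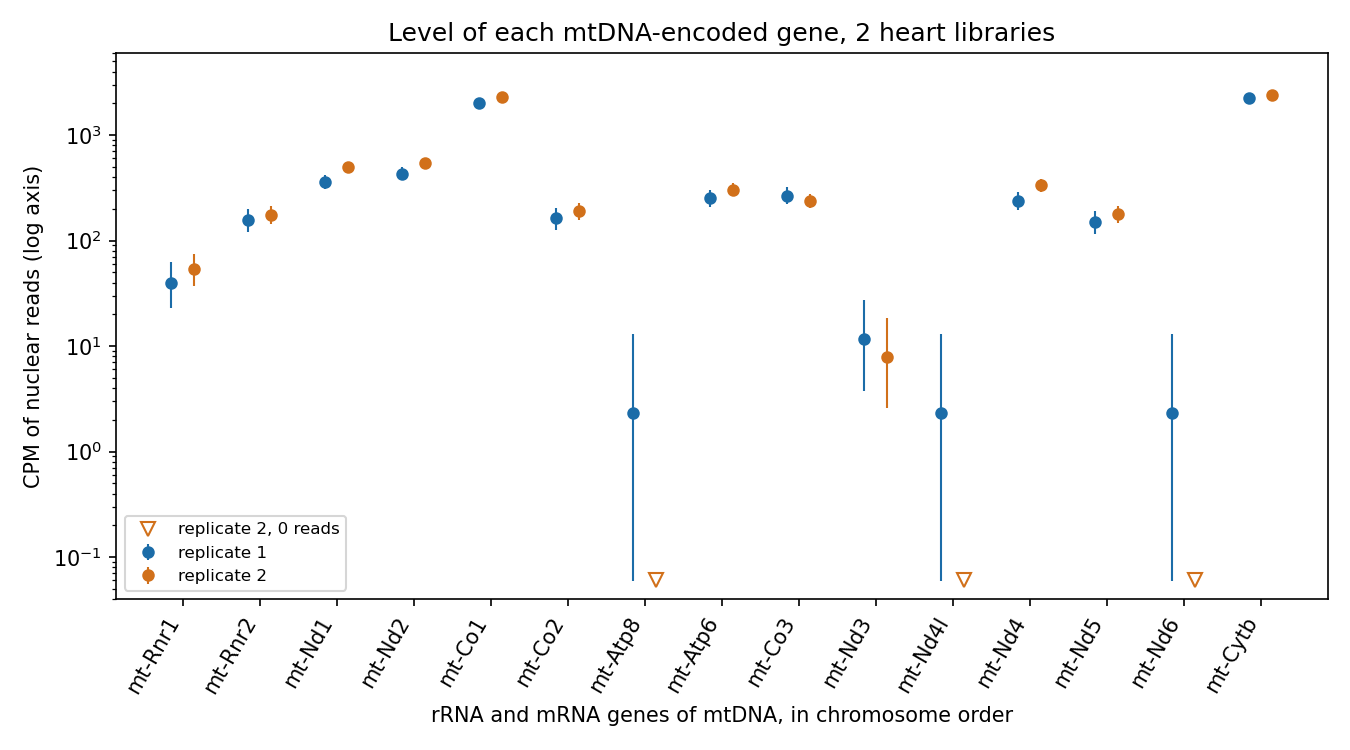
CPM of annotated nuclear reads (log axis) for the 2 rRNA and 13 mRNA genes of mtDNA in chromosome order; points are libraries, bars are 95% Poisson counting intervals and open triangles at the foot mark 0 reads. mt-Cytb and mt-Co1 stand above all others in both libraries, and mt-Atp8, mt-Nd4l and mt-Nd6 have 1 read in replicate 1 and 0 in replicate 2.

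Complex I passes electrons from NADH to ubiquinone, and its 7 mtDNA-encoded subunits form the core of its membrane arm. They summed to 1197 CPM in replicate 1 and 1565 CPM in replicate 2, which was 18.8% and 21.5% of mt reads. mt-Nd2 (chrM:3914-4951) had 186 and 346 reads, or 432 and 549 CPM. mt-Nd1 (chrM:2751-3707) had 155 and 312 reads, or 360 and 495 CPM, a range that overlapped that of mt-Nd2. mt-Nd4 (chrM:10167-11544) had 103 and 211 reads, or 239 and 335 CPM, below mt-Nd1 in both libraries. mt-Nd5 (chrM:11742-13565), the longest mRNA gene, had 64 and 112 reads, or 149 and 178 CPM, and there were 1.61 (1.17 to 2.23) and 1.88 (1.49 to 2.39) mt-Nd4 reads for each of its own. The other 3 subunits were near or below the counting limit. mt-Nd3 had 5 reads in each library, and mt-Nd4l and mt-Nd6 had 1 read in replicate 1 and 0 in replicate 2.

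Complex IV passes electrons from cytochrome c to oxygen, and mtDNA encodes its 3 core subunits. They took 38.7% and 37.6% of mt reads. mt-Co1 held 82.5% and 84.3% of the reads of the complex. mt-Co3 (chrM:8607-9390) had 115 and 150 reads, or 267 and 238 CPM. mt-Co2 (chrM:7013-7696), which carries the copper site that receives electrons from cytochrome c, had 70 and 120 reads, or 163 and 191 CPM. mt-Co1 had 12.5 (9.79 to 16.2) and 12.1 (10.1 to 14.7) reads for each mt-Co2 read, and 7.61 (6.26 to 9.32) and 9.70 (8.19 to 11.6) for each mt-Co3 read. The complex holds these subunits in equal numbers. The nuclear copies described below take reads with sequences of all 3 genes.

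Of the ATP synthase subunits, mt-Atp6, which forms the proton channel with the rotor ring, had 108 and 192 reads, or 251 and 305 CPM (chrM:7927-8607). mt-Atp8, a small membrane subunit whose gene starts upstream at chrM:7766-7969, had 1 read in replicate 1 and 0 in replicate 2. These genes are known to be carried on 1 shared mRNA. Reads named mt-Atp8 were 1 of 109 reads of the pair in replicate 1, or 0.917% (0.0232 to 5.01), and 0 of 192 in replicate 2, which allows up to 1.56%. mt-Nd4l and mt-Nd4, the other pair that shares an mRNA, gave 1 of 104 reads and 0 of 211 to the upstream gene. For both pairs almost all reads carried the name of the longer, downstream gene, so the values of mt-Atp8 and mt-Nd4l do not measure how much of their coding sequence was transcribed.

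The rRNAs of the mitochondrial ribosome took 3.07% and 3.14% of mt reads. mt-Rnr2, the large-subunit rRNA (chrM:1094-2675), had 67 and 110 reads, or 156 and 175 CPM. mt-Rnr1, the small-subunit rRNA (chrM:70-1024), had 17 and 34 reads, or 39.5 and 54.0 CPM. mt-Rnr2 exceeded mt-Rnr1 3.94 times (2.29 to 7.16) in replicate 1 and 3.24 times (2.18 to 4.90) in replicate 2. Both lay below mt-Cytb and mt-Co1, and the sources used here do not say whether RNAs with short or no poly(A) tails entered these libraries.

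Transfer RNA genes had 5 reads in replicate 1 and 18 in replicate 2. mt-Ti (isoleucine) had 3 and 6 reads, mt-Tm (methionine) 0 and 7, mt-Tt (threonine) 1 and 3, mt-Tp (proline) 0 and 2, and mt-Ta (alanine) 1 and 0. The other 17 tRNA genes had 0 reads in both libraries. Reads thus fell on mRNAs in 96.8% of cases in replicate 1 and 96.5% in replicate 2. The 9 genes annotated on the minus strand, mt-Nd6 and 8 tRNA genes, had 2 reads in each library, against 2737 and 4581 on the plus strand.

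On the scale of mean CPM per transcript, neighbours in the order did not overlap between mt-Co1 and mt-Nd2, between mt-Nd1 and mt-Nd4, between mt-Co3 and mt-Co2, between mt-Nd5 and mt-Rnr1, and between mt-Rnr1 and mt-Nd3. All other neighbours overlapped, among them mt-Nd4, mt-Atp6 and mt-Co3 at 287, 278 and 253 CPM, and mt-Co2, mt-Rnr2 and mt-Nd5 at 177, 165 and 163 CPM. Divided by annotated length, mt-Cytb led with 2035 CPM per kilobase, followed by mt-Co1 with 1406, mt-Nd2 with 473 and mt-Nd1 with 447. mt-Nd4 moved from the fifth place to the eighth, with 208 CPM per kilobase, and mt-Atp6, mt-Co3 and mt-Co2 passed it with 408, 322 and 258.

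Over all 13 mRNA genes, longer genes tended to have higher levels. mt-Atp8, mt-Nd4l, mt-Nd3 and mt-Nd6, near the counting limit, are also the shortest, at 204 to 519 bases. The values of mt-Atp8 and mt-Nd4l depend on how reads of a shared mRNA were named. Reads of mt-Atp6, mt-Co2, mt-Co3 and mt-Nd3 sequence placed on the nuclear copies described below are left out. Whether the relation holds without mt-Atp8, mt-Nd4l, mt-Nd3 and mt-Nd6 was not tested. mt-Nd5, the longest at 1824 bases, had 163 CPM, below mt-Nd2 with 1038 bases and 491 CPM. The 3 mRNA genes under 350 bases, mt-Atp8, mt-Nd4l and mt-Nd3, had 7 reads in replicate 1 and 5 in replicate 2 in all. Across the 13 mRNA genes, log2(CPM + 1) of the mean and annotated length had a Pearson r of 0.74 and a Spearman rho of 0.72, and with GC content these were 0.46 and 0.39. The points share the same libraries, so these values are descriptions. Known transcripts under 400 bases took 2.10% and 1.96% of the reads of known nuclear transcripts and 0.438% and 0.502% of mt reads, so such short models were read for both. The part of RNA length in the order was not tested.

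All 2739 and 4583 reads of mt genes were assigned to Known transcripts, 1 model per gene. No mt model was of the incomplete splice match (ISM), NIC, NNC or Genomic classes, the classes for partial, recombined, partly unannotated and unspliced models. For annotated nuclear genes, 75.7% and 75.6% of reads were Known. mt genes have no introns, and among 167 nuclear genes with only single-exon annotated transcripts and at least 20 summed reads, 147 (88.0%) also had Known reads alone. A Known model has its annotated length, so these tables do not show how far single reads reached along mt-Cytb or mt-Co1.

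Several mt genes had an almost identical partner in the nucleus that took a sizeable part of the reads. A search of the annotated nuclear transcripts for at least 100 bases with at least 90% identity to an mt transcript found 17 genes, of which 7 form the block on chromosome 1. Reads were found for 8 of the 17, 443 in replicate 1 and 490 in replicate 2, or 16.2 and 10.7 for every 100 mt reads. The block held 424 and 461 of these. The sources used here do not state how reads of identical sequence were placed, and the split between an mt gene and its copy is uncertain.

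For mt-Atp6, the copy Gm10925 (chr1:24613974-24614651), identical over the 678 bases it covers, had 122 and 204 reads. Those were 53.0% (46.4 to 59.6) and 51.5% (46.5 to 56.5) of the reads of the pair. For mt-Co2, the identical copy Gm28661 (chr1:24614885-24615565) had 59 and 98 reads, or 45.7% (36.9 to 54.7) and 45.0% (38.2 to 51.8). For mt-Co3, the identical copy Gm28437 (chr1:24613189-24613971) had 75 and 144 reads, or 39.5% (32.5 to 46.8) and 49.0% (43.1 to 54.8). The small mt-Nd3 was divided in the same way, with 4 and 5 reads on Gm28438. mt-Nd4 was not. The copy Gm28439, which matches the first 876 of the 1378 bases of mt-Nd4, had 2 and 3 reads, or 1.90% and 1.40% of the pair. Gm10222, identical to mt-Nd4l over 294 bases, had 0 reads in both libraries.

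**Figure D2:**
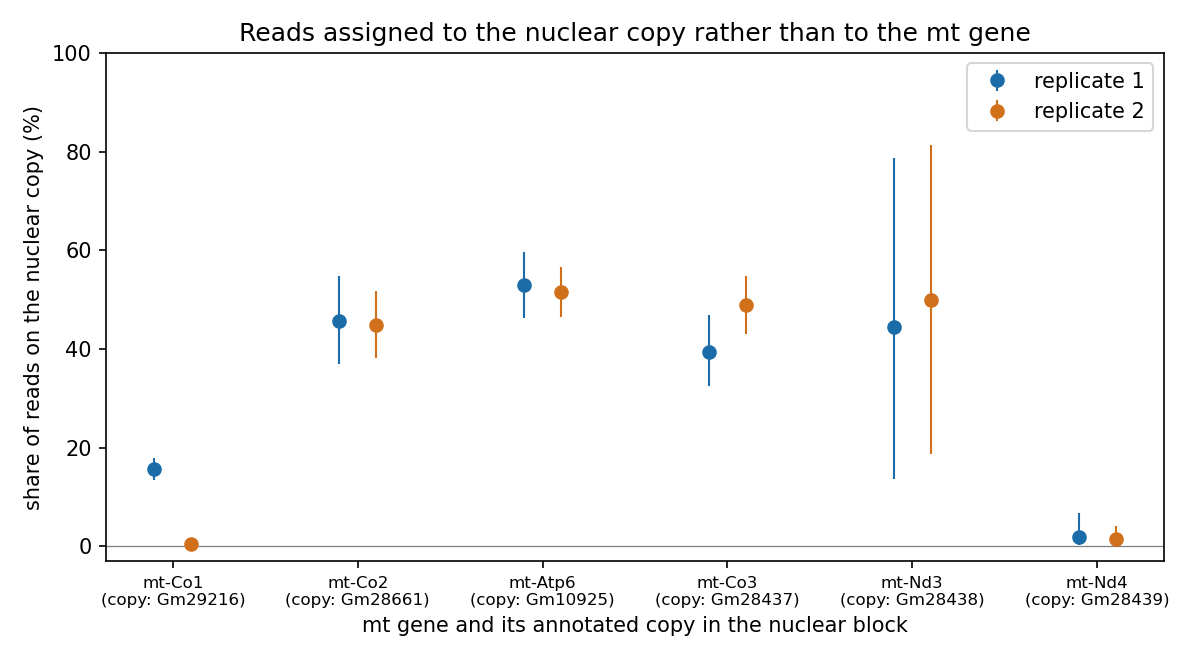
Share of the reads of an mt gene and its copy that were assigned to the copy in the chromosome 1 block, in percent; points are libraries and bars are 95% Clopper-Pearson intervals. mt-Co2, mt-Atp6, mt-Co3 and mt-Nd3 lie between 39.5% and 53.0% in both libraries, and mt-Co1 differs between them, at 15.6% and 0.479%.

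The copy of the end of mt-Co1 was read unequally in the libraries. Gm29216 (chr1:24615706-24616197), shown above beside mt-Co1 and covering 31.3% of it by the search, had 162 reads in replicate 1 and 7 in replicate 2, a 33.9-fold difference (95% counting interval 16.1 to 85.6, adjusted p = 8.96e-51, exact binomial test). An unannotated model on the same strand (chr1:24615565-24615706) had 0 reads in replicate 1 and 212 in replicate 2. It fills the gap between Gm28661 and Gm29216 and shares only its end bases with them. Gm29216 and this model, summed after their counts were seen, had 162 and 219 reads, a ratio of 1.08 (0.878 to 1.33) after scaling. The adjoining model was high in the library where Gm29216 was low. Whether its reads come from the same RNA was not tested.

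A second copy of mt-Co1, Gm13340 (chr2:22588103-22589647), spans the whole gene with 97.6% identity and had 19 and 28 reads, or 2.13% and 1.89% of the pair. Gm13341, a copy of mt-Co2 in the same region, had 0 and 1 reads. The copy of mt-Cytb, Gm11410 (chr4:80003989-80005131), with 92.9% identity, had 0 reads in both libraries beside 966 and 1518 for mt-Cytb. The 10 copies outside the block, none of them identical to its mt gene, had 19 and 29 reads in all.

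Adding the block's reads to the matching mt genes, an alternative chosen after seeing the data, changed the order of levels. mt-Co1 then had the highest mean, 2368 ± 64 CPM (SD, n = 2) beside 2330 ± 116 for mt-Cytb. It led only in replicate 1, with 2413 against 2247 CPM, and mt-Cytb led in replicate 2, with 2412 against 2323 CPM. With the adjoining model counted too, mt-Co1 had 2536 ± 175 CPM and led in both. That model lies outside the copy of mt-Co1 but for its end base, so this lead depends on the choice to add it. mt-Atp6 rose from the sixth place to the third with 582 ± 66 CPM, mt-Co3 to the fifth with 455 ± 18 and mt-Co2 to the seventh with 323 ± 33. With the block's reads alone, mt-Co1 had 8.04 (6.69 to 9.73) and 6.71 (5.81 to 7.77) reads for each mt-Co2 read and 5.46 (4.67 to 6.40) and 4.97 (4.38 to 5.66) for each mt-Co3 read. The excess of mt-Co1 over the other core subunits was thus smaller but remained in both libraries.

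Between the libraries, the tested mt genes were mostly lower in replicate 1, by amounts that did not pass the per-gene test over all genes. All mt genes summed took 0.612% (counting interval 0.589 to 0.635) of mouse reads in replicate 1. In replicate 2 they took 0.701% (0.680 to 0.721). These intervals did not overlap. They cover counting error alone and leave out reads on the nuclear copies. The difference between the sums was not tested. Each gene with at least 10 summed reads was compared by an exact two-sided binomial test on raw reads against the share of nuclear reads in each library, and p-values were adjusted over 8098 genes by the Benjamini-Hochberg method. Over all these genes, 56 (0.692%) had an adjusted p under 0.05 and 26 (0.321%) also differed at least 2-fold. Of the mt genes 12 were tested, and 0 reached an adjusted p under 0.05. Unadjusted p-values under 0.05 were found for 4 of the 12, against 579 (7.15%) of all genes. Replicate 1 was the lower library for 10 of the 12, against 3970 (49%) of all genes. The median log2 ratio of replicate 1 over replicate 2 was -0.24 over the mt genes, with a range of -0.48 to 0.55, and 0.01 over all genes tested.

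The 4 genes were mt-Nd1, mt-Nd2, mt-Nd4 and mt-Co1. mt-Nd1 had a log2 ratio of -0.46 (adjusted p = 0.122, exact binomial test) and mt-Nd4 one of -0.48 (adjusted p = 0.286). mt-Nd2 had -0.34 (adjusted p = 0.369) and mt-Co1 -0.18 (adjusted p = 0.216). mt-Cytb had -0.10, mt-Atp6 -0.28, mt-Nd5 -0.25, mt-Co2 -0.22, mt-Rnr2 -0.16 and mt-Rnr1 -0.43, with adjusted p-values from 0.789 upward by the same exact test. mt-Co3 at 0.17 and mt-Nd3 at 0.55 were the genes higher in replicate 1. The sign for mt-Co3 changed to -0.078 with the reads of its copy, and that for mt-Co1 to 0.055 with its copy but not with the adjoining model, at -0.14. Scaled by the ERCC spike-in RNAs added to each library in place of the nuclear total, 6 of the 12 mt genes passed, all lower in replicate 1, against 364 (4.49%) of all genes, and the median of all genes moved from 0.01 to -0.26.

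**Figure D3:**
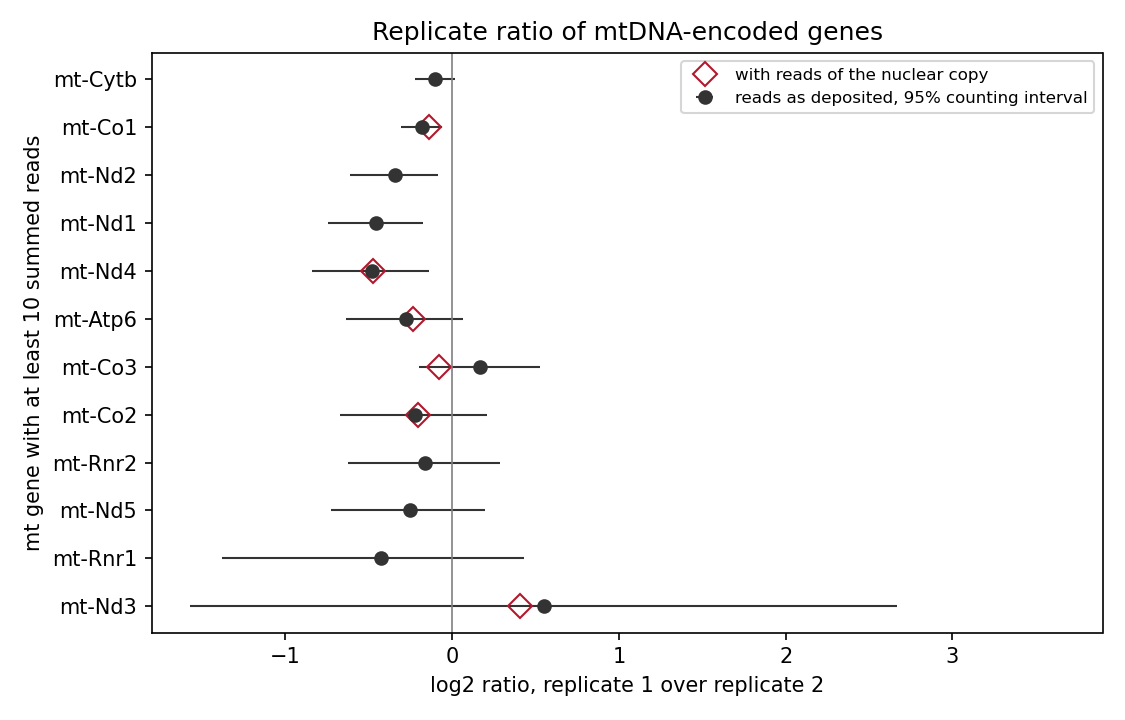
Log2 ratio of replicate 1 over replicate 2 for the 12 mt genes with at least 10 summed reads; filled points use the deposited assignment with 95% counting intervals, and open diamonds add the reads of the chromosome 1 copies and the adjoining model. Of the filled points 10 lie left of 0, and mt-Co3 moves from 0.17 to -0.078 with its copy.

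Blood markers moved the other way. Of 6 erythroid genes, 5 had reads and all 5 passed as higher in replicate 1, with Slc4a1 at 0 reads in both libraries, and their summed level was 13799 CPM in replicate 1 and 3663 CPM in replicate 2. Hba-a1, Hbb-bs and Hba-a2, which encode globin chains, had the highest levels of these. Among the cardiomyocyte markers Myh6 was higher in replicate 1 (log2 ratio 0.40) and Pln lower (-0.15), both with an adjusted p under 0.05 by the exact test. The part of these markers in the mt values was not tested.

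The listed nuclear subunits that assemble with the mt-encoded ones were read at higher summed levels. These sums depend on which genes, and how many, were listed. The sources used here do not say whether RNAs with short poly(A) tails entered the libraries, which limits this comparison too. For complex I, 7 nuclear core subunits summed to 9216 and 9957 CPM, 7.70 and 6.36 times the 7 mt-encoded ones, led by Ndufv1, Ndufs7 and Ndufs1 at 2162, 2119 and 1631 CPM. For complex III, 4 nuclear subunits summed to 4.60 and 4.47 times the level of mt-Cytb alone. Their medians per gene, 2064 and 2135 CPM, lay below mt-Cytb, at 2245 and 2410 CPM. The highest of them, Uqcrc1, had 5168 CPM, and Uqcrfs1 at 2180 and Cyc1 at 2019 CPM were close to mt-Cytb at 2328 CPM per transcript. For complex IV, 5 nuclear subunits summed to 6.32 and 5.85 times the 3 mt-encoded ones, with Cox4i1 at 8893, Cox6c at 2265 and Cox7c at 1724 CPM beside mt-Co1 at 2172. For ATP synthase, 5 subunits of its catalytic head summed to 80.6 and 73.1 times mt-Atp6 and mt-Atp8, led by Atp5b at 10386, Atp5a1 at 7121 and Atp5c1 at 1814 CPM. With the block's reads added to the mt genes, without the adjoining model, this ratio was 38.0 and 35.5, and that of complex IV 4.94 and 5.11.

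**Figure D4:**
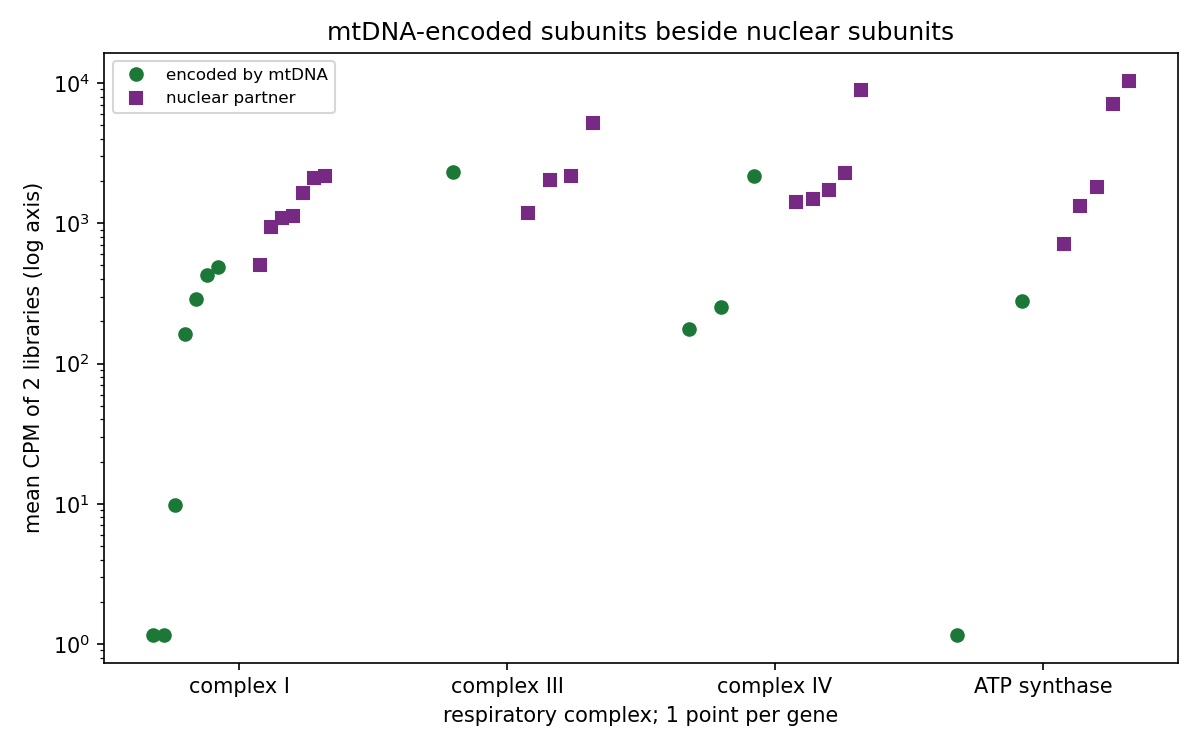
Mean CPM of 2 libraries (log axis) for each mtDNA-encoded subunit (circles) and each listed nuclear subunit (squares) of 4 respiratory complexes. mt-Cytb and mt-Co1 lie among the nuclear subunits of their complexes, and the means of the other mt-encoded subunits lie below those of all listed nuclear subunits of theirs, although mt-Nd2 exceeded Ndufs8 in replicate 2, with 549 against 513 CPM.

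Of the 21 nuclear subunits, 20 were also lower in replicate 1, against 49% of all genes tested. Their median log2 ratio was -0.06, smaller in size than the mt median. Passing the test were 2 of them, against 0.692% of all genes, both lower in replicate 1: Uqcrc2 at -0.37 (adjusted p = 0.00311, exact binomial test) and Atp5b at -0.17 (adjusted p = 4.56e-07, same test). Whether the mt and nuclear subunits differed in their ratios was not tested.

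Nuclear genes that copy, transcribe and handle mtDNA and its RNAs were read at low to moderate levels, and none of those tested passed between the libraries. Only 0.692% of all genes tested passed, so the absence of passing genes says little about these lists. Of all genes tested, 49% were lower in replicate 1. The 16 listed genes of mtDNA transcription and maintenance all had reads and summed to 738 ± 27 CPM (SD, n = 2), with 8 of 12 tested higher in replicate 1 and a median of 0.06 on the log2 scale. The highest were Ssbp1, which binds single-stranded mtDNA, at 217 CPM, the DNA polymerase subunit Polg at 79.1 and the helicase Twnk at 71.0. The mitochondrial RNA polymerase Polrmt had 57.1 ± 17.9 CPM and the packaging and transcription factor Tfam 39.1 ± 10.4 CPM. Of the genes for processing, stability and decay of mitochondrial RNA, 27 summed to 2703 ± 99 CPM, and 9 of 24 tested were higher in replicate 1, with a median of -0.08. Fastk led this list at 896 CPM, followed by Lrpprc, which stabilizes mitochondrial mRNAs, at 255 and Hsd17b10, a subunit of mitochondrial RNase P, at 246. The 12 translation factors summed to 912 ± 35 CPM, led by the elongation factors Gfm1 at 221 and Tufm at 185 and by Ptcd3 at 116, with 5 of 12 higher in replicate 1 and a median of -0.20.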

How the data were processed

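Long-read RNA was counted in 2 heart libraries of 1 group. The deposited tables held raw read counts per transcript model, 1 table per library, without normalization, per the file headers. Models missing from GENCODE M21 were named by TALON, per the file headers. The sources used here name neither the aligner nor its version.

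Reads of all classes were summed per gene, and CPM were calculated from the deposited counts over annotated nuclear reads. Log2 ratios used 0.5 added reads. Genes with at least 10 summed reads (8098) were compared by an exact two-sided binomial test with Benjamini-Hochberg adjustment (SciPy 1.17.1), checked on simulated data. It compares libraries and covers counting error only. The planned comparison of Known shares had no bearing on mt genes, all at 100% in both libraries. Nuclear copies were found with BLAST 2.17.0. Overlapping and antisense genes are uncertain because the sources used here do not state how strand was assigned.

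The genes and lists were chosen with earlier results of these data known. All mRNA and rRNA genes, the tRNA genes with reads, the 3 highest genes of each other list and those passing the test were named; Polrmt, Tfam, mt-gene copies and Slc4a1 were added after their values were seen. Alternatives were other scalings, read minimums, model classes, pseudocounts, division by length, leaving out each replicate and adding nuclear copies.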

Additional observations from a re-analysis of the deposited data

Results flagged for a closer look

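Models on chrM that the annotation lacks took 49 of 2788 chrM reads in replicate 1, or 1.76% (95% Clopper-Pearson interval 1.30 to 2.32), and 88 of 4671 in replicate 2, or 1.88% (1.51 to 2.32). They enter no gene level above, and those listed here had more reads than the 3 that a count of 0 allows. The largest lay on the plus strand between mt-Nd5 and mt-Cytb, opposite mt-Nd6 and mt-Te. It had 18 reads in replicate 1 (chrM:13565-14139) and 39 in replicate 2 (chrM:13565-14145), against 1 and 0 reads of mt-Nd6 itself. On the minus strand, a model with its lower coordinate at the junction of mt-Atp6 and mt-Co3 had 6 reads in replicate 1 (chrM:8607-10710), and one with the same lower coordinate had 15 in replicate 2 (chrM:8607-12491).

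Plus-strand models with no annotated gene had 7 reads in replicate 1 (chrM:15730-16294) and 11 in replicate 2 (chrM:15679-16297). A plus-strand model opposite mt-Tp had 5 reads in replicate 1 (chrM:15356-15422). In replicate 2, minus-strand models opposite mt-Rnr2 (chrM:1094-2675) and opposite mt-Cytb and mt-Tt (chrM:14139-15355) had 4 and 5 reads. Of the ends of all unannotated chrM models, 15 of 26 in replicate 1 and 16 of 30 in replicate 2 lay within 1 base of an annotated gene end. All minus-strand chrM reads, annotated or not, were 20 and 36, or 0.717% and 0.771% of chrM reads.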

How the results depend on the processing

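No paired analysis was possible because the series has 1 group. Under ERCC scaling 70 genes were called (adjusted p under 0.05 and at least 2-fold) in place of 26. By adjusted p alone, with the exact test, 364 genes passed in place of 56, and 6 of them were mt genes in place of 0: mt-Nd1, mt-Nd2, mt-Nd4, mt-Co1, mt-Cytb and mt-Atp6. Known transcripts alone gave 15 calls at least 2-fold, over fewer genes tested. No mt gene was called at least 2-fold under any setting run. The sign of mt-Co3 reversed to -0.10 with ERCC scaling and to -0.078 with nuclear copies added, with or without the adjoining model, and that of mt-Co1 to 0.055 with the copies alone. The causes were not tested, beyond the added reads themselves. The other log2 ratios kept their sign under all settings run. The summed mt level was 7732 CPM with nuclear copies, and 6366 to 7276 CPM with 1 replicate left out, where the Known share stayed at 100%. With 2 libraries and few reads, levels of mt-Nd3, mt-Atp8, mt-Nd4l, mt-Nd6 and the tRNA genes were at or near the counting limit.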
